A study of Mus musculus with 6 samples.

Results

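Madcam1, Icam1, Vcam1, Sele and Selp encode cell surface molecules by which leukocytes attach to a vessel wall or an epithelium. These 5 genes were described here out of the 25949 probe sets of the arrays, each of which stands for 1 Ensembl mouse gene. The genes were chosen by their shared function and with the difference between Fc-Eda-treated and control buds on these arrays already known, so that difference is given as a description, with no test result for them. All 5 had a probe set, namely ENSMUSG00000020310_at for Madcam1, ENSMUSG00000037405_at for Icam1, ENSMUSG00000027962_at for Vcam1, ENSMUSG00000026582_at for Sele and ENSMUSG00000026580_at for Selp. The arrays list identifiers only, and the names of these 5 came with the list of members.

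Mammary buds are the embryonic epithelial primordia of the mammary glands. All 6 samples were E13.5 buds of Eda-/- embryos on a B6CBA background, which lack the ligand ectodysplasin (Eda), so that the control buds carry the mutation as well. The 3 control samples were labelled as non-treated, and the other 3 had received the recombinant ligand, Fc-Eda-A1, at 250 ng/mL. Both were kept in culture for 4 h, the controls in medium without the ligand. Each sample was a pool, of about 20 buds from 5 to 6 embryos by its label and of 15 to 20 buds from 4 or 5 embryos by the methods, and the embryos came from 3 litters, and the buds of the same embryos were divided between both conditions, which gives 3 pairs of arrays. Most but not all of the adjacent mesenchyme had been dissected away, so cells other than bud epithelium can contribute to a level, and markers of endothelium and leukocytes were not analysed here because their identifiers have no names in the tables used.

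Eda belongs to the tumor necrosis factor family and signals through its receptor Edar to the transcription factor NF-κB. Madcam1 and the vascular adhesion molecules Icam1 and Vcam1 are immunoglobulin superfamily proteins, which bind integrins on leukocytes, α4β7 in the case of Madcam1, αLβ2 and αMβ2 in the case of Icam1 and α4β1 in the case of Vcam1. Sele and Selp are the selectins of activated endothelium, which bind sugars on leukocytes and let them roll, and Selp is also stored in platelets. All are best known from inflamed or lymphoid vessels, where tumor necrosis factor and NF-κB raise the transcription of several of them, and Madcam1 and Icam1 are also made by hair placodes of the embryonic skin.

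Because Eda signals to NF-κB, the promoters of the members are shown with the letters of NF-κB-type motifs in capitals. The sequences are from RefSeq on GRCm38.p6, and each window reaches from 250 bases before to 50 bases after the transcription start. A window was on hand for 4 of the 5 members, Vcam1 being the exception. The search covered both strands with the 9-base motif GGNNNTTCC and with the longer NF-κB consensus, whose matches can contain the shorter motif. Madcam1 and Icam1 are given whole, and Sele and Selp by the match with 20 bases on either side.
Madcam1, chr10:79664309-79664608, + strand: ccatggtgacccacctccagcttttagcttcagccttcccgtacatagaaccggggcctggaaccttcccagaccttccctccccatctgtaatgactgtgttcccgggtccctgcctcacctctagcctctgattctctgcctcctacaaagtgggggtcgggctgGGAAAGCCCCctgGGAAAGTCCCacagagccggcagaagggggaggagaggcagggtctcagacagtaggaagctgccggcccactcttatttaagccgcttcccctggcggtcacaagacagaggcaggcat
Icam1, chr9:21015690-21015989, + strand: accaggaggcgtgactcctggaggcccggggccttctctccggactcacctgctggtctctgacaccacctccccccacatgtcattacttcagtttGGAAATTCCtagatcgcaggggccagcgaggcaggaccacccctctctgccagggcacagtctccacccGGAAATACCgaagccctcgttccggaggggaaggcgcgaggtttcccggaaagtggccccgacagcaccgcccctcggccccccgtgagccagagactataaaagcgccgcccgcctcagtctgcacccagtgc
Sele, chr1:164048069-164048117, + strand: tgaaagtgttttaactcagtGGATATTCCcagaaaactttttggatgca
Selp, chr1:164115230-164115278, + strand: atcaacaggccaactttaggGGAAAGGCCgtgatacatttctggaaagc

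The Madcam1 window held 2 matches to the NF-κB consensus, at 83 to 74 and at 70 to 61 bases before the start, and each of them contains the 9-base motif on the minus strand. No other member's window held the consensus, which was found in 4.51% of all 32851 RefSeq windows of this length. The 9-base motif was present in all 4 windows, against 18.5% of all windows. Icam1 had it at 153 to 145 bases before the start, where it reads on both strands, and at 84 to 76 bases before the start. Sele had 1 match, 145 to 137 bases before the start, and Selp had 1, 14 to 6 bases before the start. The start used for Sele lies inside the span of its gene in the same annotation. These matches describe letters in a window and say nothing about binding.

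**Figure D1:**
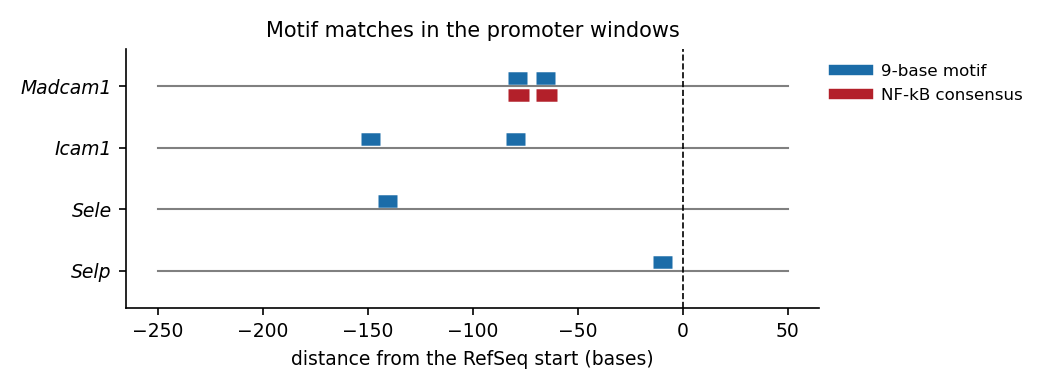
Motif matches in the promoter windows of Madcam1, Icam1, Sele and Selp, by distance in bases from the RefSeq start (dashed line, horizontal axis from 250 bases before to 50 after). Blue blocks are the 9-base motif and red blocks the NF-κB consensus, which appears 2 times, in the Madcam1 window only among these 4.

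Madcam1 and Icam1 were higher in the Fc-Eda-treated buds with no overlap between the groups, and Vcam1 was higher within every pair but with overlapping groups. Sele and Selp differed by less than 0.5 in every pair, Sele with mixed signs and Selp lower in every pair, and their groups overlapped. Of all 25949 probe sets, 3.98% had every treated array above every control array, 13.2% were higher in all 3 pairs and 15.3% were lower in all 3 pairs. Values are log2 levels per probe set as deposited, and since probes differ in brightness, a level of 1 gene is not set against that of another, and the percentile of a probe set on its array describes brightness and not the amount of transcript. On such a scale a difference of 1 is a 2-fold change. In pooled tissue, a change in the number of expressing cells and a change of RNA per cell cannot be told apart. On the array of control replicate 1 the lower quartile over all probe sets was 3.74, against 3.45 to 3.56 on the other 5 arrays, and its median was 4.99 against 4.80 to 4.83, so that array stood apart among dim probe sets.

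Madcam1, the addressin of gut and lymphoid venules, was at 5.25, 4.84 and 4.53 in control buds of replicates 1, 2 and 3. After Fc-Eda it was at 6.29, 6.38 and 6.54 in the same order. Every Fc-Eda array lay above every control array. The control mean was 4.87 ± 0.36 (SD, n = 3) and the Fc-Eda mean 6.40 ± 0.13 (SD, n = 3). Within the pairs Fc-Eda exceeded control by 1.04, 1.54 and 2.01, a mean difference of 1.53 ± 0.49 (SD of 3 pairs) or 2.89-fold. Pair 1 holds the control array that stood apart. The difference in that pair was 1.12 after quantile normalization, 1.22 with each array centred on its median and 1.06 after cyclic loess. The pair with the highest control level had the smallest difference and the pair with the lowest control level the largest, while the treated levels spanned 0.25 and the control levels 0.72. Since the control level is subtracted, control levels that spread more than treated levels tend to give such an order by themselves. Madcam1 had the 8th largest mean difference of the 25949 probe sets and ranked 46th, 7th and 6th in pairs 1, 2 and 3. Its probe set stood at percentiles 44.6 to 55.1 of the control arrays and 73.3 to 77.6 of the treated arrays.

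Icam1, a broadly inducible integrin ligand, was at 7.19, 7.51 and 7.28 in control buds of replicates 1, 2 and 3. With Fc-Eda its level was 8.43, 8.73 and 8.46. The groups did not overlap, and in both conditions replicate 2 was the highest of the 3. The means were 7.33 ± 0.16 in control and 8.54 ± 0.17 in treated buds (SD, n = 3 each). The pair differences were 1.24, 1.22 and 1.18, with a mean of 1.21 ± 0.03 (SD of 3 pairs) or 2.32-fold. As deposited, this spread between pairs was at percentile 2.70 of all probe sets, whose median SD of the pair differences was 0.163, whereas that of Madcam1 was at percentile 94.0. The small spread of Icam1 depended on the scaling of the arrays. Its SD was 0.04 after quantile normalization, 0.13 with each array centred on its median and 0.05 after cyclic loess. Icam1 had the 15th largest mean difference, and ranked 29th, 21st and 51st in the separate pairs. Its probe set stood at percentiles 87.2 to 89.4 of the control arrays and 96.2 to 97.2 of the treated arrays.

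Vcam1, a ligand of α4 integrins, varied most among the control arrays of these 5 genes, with 5.46, 6.65 and 5.77 in replicates 1, 2 and 3. In treated buds it was at 6.31, 6.82 and 6.30. The groups overlapped, since control replicate 2 was above the treated arrays of replicates 1 and 3, and within each condition replicate 2 was the highest. The control mean was 5.96 ± 0.62 and the treated mean 6.48 ± 0.30 (SD, n = 3 each). Within the pairs the difference was 0.86, 0.18 and 0.53, so that Vcam1 was higher after Fc-Eda in all 3 pairs, with a mean of 0.52 ± 0.34 (SD of 3 pairs), or 1.44-fold. That SD was at percentile 85.4 of all probe sets. As for Madcam1, the pair with the highest control level had the smallest difference, and the control levels spanned more than the treated levels. Its mean difference ranked 172nd of all probe sets, and Vcam1 ranked 98th, 3433rd and 673rd in pairs 1, 2 and 3. Leaving out pair 1, the pair of the array that stood apart, gave 0.35, and leaving out pair 2 gave 0.69.

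**Figure D2:**
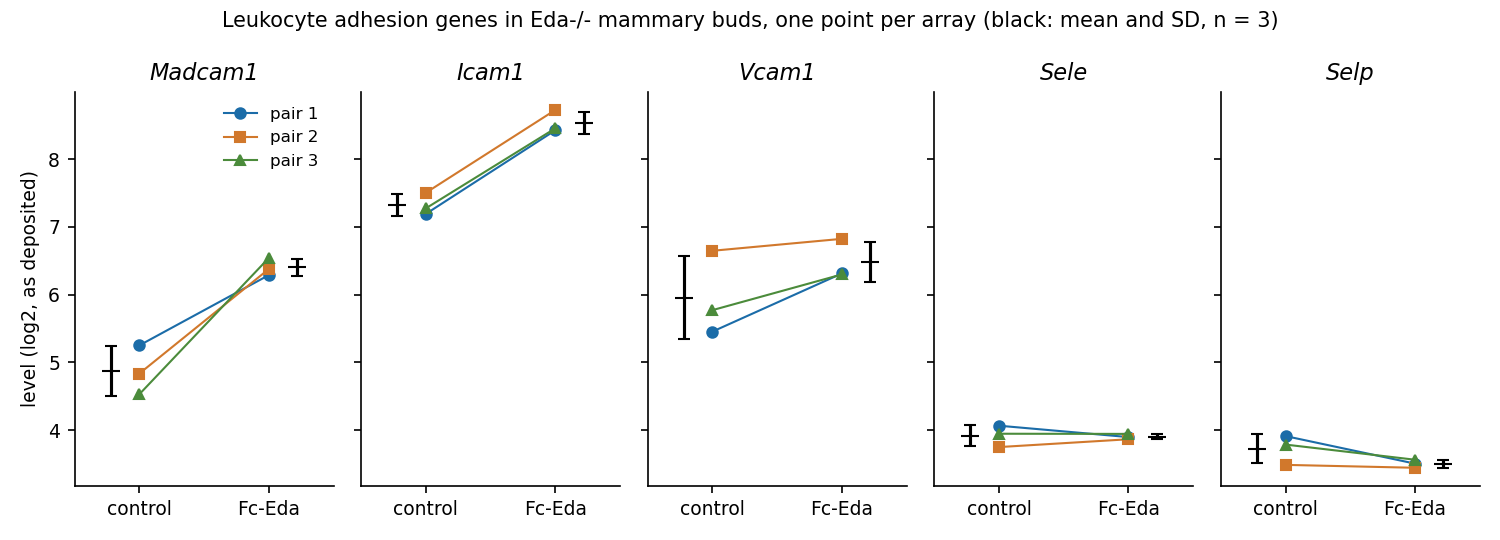
Level (log2, as deposited) of each gene on each of the 6 arrays, control on the left and Fc-Eda on the right of each panel, with lines joining the arrays of a pair and black bars for the mean and SD (n = 3). For Madcam1 and Icam1 every treated array lies above every control array, whereas for Vcam1 control replicate 2 (6.65) lies above 2 treated arrays and for Sele and Selp the groups overlap.

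Sele, which appears on endothelium after cytokine stimulation, was at 4.07, 3.75 and 3.95 in control buds and at 3.90, 3.87 and 3.94 in treated buds of replicates 1, 2 and 3. The treated arrays all lay within the range of the controls. The pair differences were -0.17, 0.12 and -0.002, with a mean of -0.02 ± 0.14 (SD of 3 pairs). The sign of this mean was not stable, as it was 0.06 with quantile normalization, 0.04 with each array centred on its median and 0.07 after cyclic loess, and 0.06 with pair 1 left out.

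Selp, stored for release by endothelium and platelets, was at 3.91, 3.49 and 3.79 in control buds. Its treated levels were 3.51, 3.44 and 3.56. The groups overlapped, with control replicate 2 below the treated arrays of replicates 1 and 3. The difference was -0.41, -0.04 and -0.22 in the pairs, with a mean of -0.22 ± 0.18 (SD of 3 pairs). It came to -0.14 after quantile normalization or cyclic loess and -0.13 without pair 1. Both selectins had their highest value of the 6 arrays on control replicate 1, the array with raised dim probe sets, and the part of that array in these differences was not tested beyond the values just given. Both probe sets lay at percentiles 24.8 to 33.3 of the arrays. No detection call or background level was on hand, so whether the selectins were transcribed in the buds at all was not judged.

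**Figure D3:**
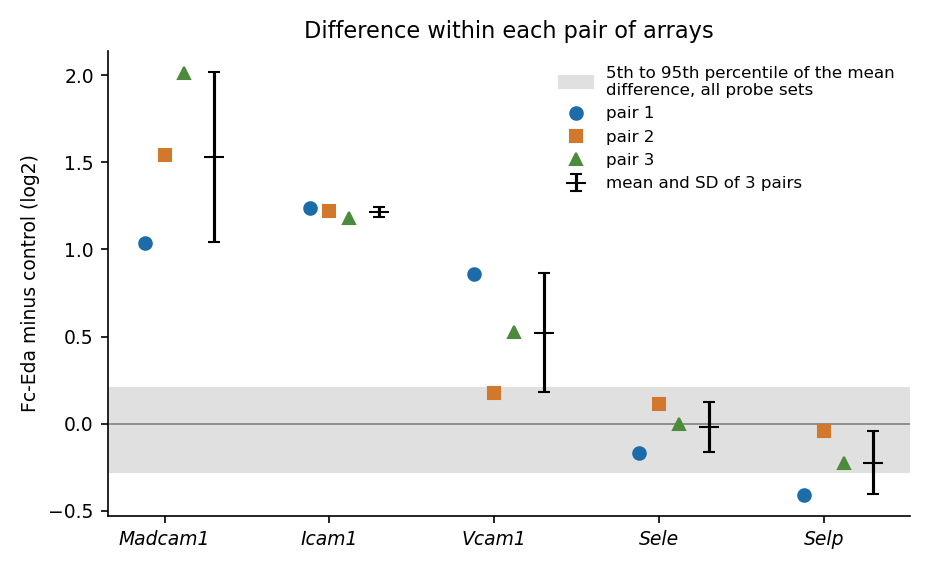
Fc-Eda minus control (log2) within each of the 3 pairs, with the mean and SD of the pairs in black and, in grey, the 5th to 95th percentile (-0.28 to 0.20) of the mean difference over all probe sets. The 3 pairs of Icam1 lie between 1.18 and 1.24, those of Madcam1 between 1.04 and 2.01, and those of Vcam1 between 0.18 and 0.86, while Sele and Selp lie around and below 0.

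Set beside all probe sets, 2 of the 5 members, Madcam1 and Icam1, had every treated array above every control array, against 3.98% of all probe sets. The same 2 members exceeded control by over 0.5 in every pair, as did 0.281% of all probe sets. A difference above 0 in every pair was seen for Madcam1, Icam1 and Vcam1, 3 of 5, against 13.2% of all probe sets, and a difference below 0 in every pair for Selp, 1 of 5, against 15.3%. These counts rest on the contrast with which the members were chosen, and nothing is read from the comparison.

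**Figure D4:**
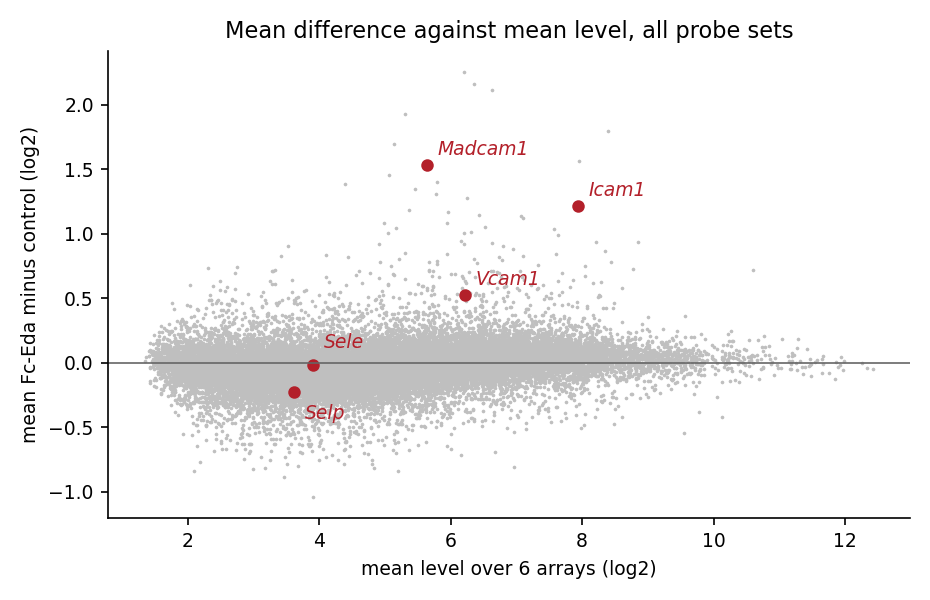
Mean Fc-Eda minus control (log2, vertical axis) against the mean level over the 6 arrays (log2, horizontal axis) for the 25949 probe sets in grey, with the 5 adhesion genes in red. Madcam1 is drawn at 1.53, Icam1 at 1.21, Vcam1 at 0.52, Sele at -0.02 and Selp at -0.22, and since this contrast was used to choose them, their place in the plot is a description.

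Taken over all probe sets and without reference to the members, limma with the 3 pairs as a block called 0 of 25949 higher at a q-value under 0.05, that is 0%. The smallest q was 0.10, and at an unadjusted p under 0.05 limma had 708 probe sets higher and 864 lower. The study's methods used limma together with IBMT, in which the prior variance follows the level, and Cyber-T, which borrows variance from probe sets of like level. When a pass in 1 or more of these 3 tests was enough, 162 probe sets were called higher, 0.624% of all. No outcome of these tests is given for the 5 genes, since they were chosen on the same contrast.

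**Figure D5:**
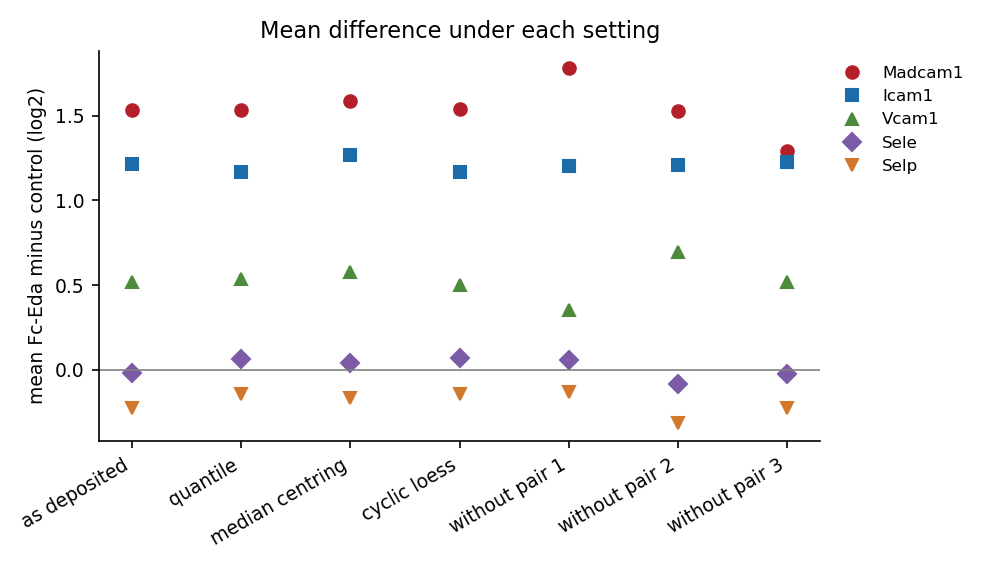
Mean Fc-Eda minus control (log2) of each gene as deposited, after 3 other normalizations and with each pair of arrays left out. Madcam1 stays between 1.29 and 1.78, Icam1 between 1.17 and 1.27, Vcam1 between 0.35 and 0.69 and Selp between -0.32 and -0.13, whereas Sele changes sign.

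The probe sets whose 3 pair differences were closest to those of Madcam1 and Icam1 were sought by the root mean square distance over the 3 pairs, on the log2 scale. For Madcam1 the nearest was ENSMUSG00000056025_at, with differences of 1.37, 1.55 and 2.16 and a distance of 0.21, and it was the 1 probe set within 0.25. Icam1 had 8 probe sets within 0.25, and the nearest, ENSMUSG00000019850_at, differed by 1.27, 1.11 and 1.14, a distance of 0.07. These identifiers have no names in the tables used here.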

How the data were processed

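RNA of 6 bud pools had been hybridised to Affymetrix Mouse Exon 1.0 ST arrays. The authors deposited log2 values, 1 per array for each of 25949 Ensembl-named probe sets, and the submitters' processing notes name RMA, which corrects background, normalizes and summarises probes; its version, the probe definition and the genome build are not given in the sources used here. No column was without a sample. Groups and replicate numbers came from the sample titles, and the dose from the methods.

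Differences between Fc-Eda and control were taken within each replicate number, since buds of the same embryos were divided between both conditions, and the methods pair them. Over all probe sets, the paired arrays deviated from their group means with correlations of r = 0.079, 0.29 and 0.29. Across all probe sets, limma 3.58.1 in R 4.3.3 was fitted with the replicate number as a block, with Storey q-values and a threshold of 0.05. IBMT (loess span 0.75) and a Cyber-T type test (prior weight 10) were written out from their formulas. The fits were also run on simulated data, and the outcome of that run is not given here. Precision is limited by there being 3 arrays per group.

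The members and lists were chosen with earlier results of these data known. Named were the 5 members, the probe sets nearest to Madcam1 and Icam1, and genes of 8 lists with 113 symbols (leukocyte adhesion, endothelial, leukocyte, epithelial, mesenchyme and NF-κB genes). The reference table matched 0 of the 25949 identifiers, so these lists are not analysed here. Alternatives were a fit with no block, IBMT, the Cyber-T type test, the rule of 1 of 3 tests and Benjamini-Hochberg adjustment. Further ones were an intensity trend with robust moderation, a plain paired t-test, a filter on level, 3 normalizations and leaving out each pair.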

Additional observations from a re-analysis of the deposited data

How the results depend on the processing

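After seeing the data, it was also counted under each normalization and without each pair which members passed 0.5 in every pair or had groups that did not overlap, and the other alternatives were planned. The mean differences of Madcam1, Vcam1, Sele and Selp moved by less than the SD of their pairs under the 3 other normalizations. Icam1, whose pairs differ by an SD of only 0.03 as deposited, moved by more than that, from 1.21 to 1.17 with quantile normalization, 1.27 with median centring and 1.17 with cyclic loess. With a pair left out, which cannot move a mean of 3 pairs by a whole SD, the mean difference ranged from 1.29 to 1.78 for Madcam1, 1.20 to 1.23 for Icam1, 0.35 to 0.69 for Vcam1, -0.09 to 0.06 for Sele and -0.32 to -0.13 for Selp. Madcam1 and Icam1 passed 0.5 in every pair and had groups without overlap in all of these settings. With a pair left out this had to follow from their passing with all 3 pairs, so only the 3 normalizations could have changed it. Of all probe sets, 0.297%, 0.393% and 0.297% passed 0.5 and 4.86%, 5.6% and 5.1% had no overlap after quantile normalization, median centring and cyclic loess, against 0.281% and 3.98% as deposited. Without pairs 1, 2 and 3 the shares were 0.57%, 0.466% and 0.424%, and 14.9%, 12.9% and 12.3%. Vcam1 passed both without pair 2.

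Over all probe sets, limma with the paired design called 0 higher and 0 lower, and without the replicate block 3 and 0. The counts were also 0 and 0 with Benjamini-Hochberg adjustment, quantile normalization or cyclic loess, and 708 and 864 at an unadjusted p under 0.05. IBMT called 88 and 6, the Cyber-T type test 162 and 31, any of the 3 tests 162 and 31, limma with an intensity trend and robust moderation together 90 and 6, limma above the median level 85 and 6, and limma after median centring 56 and 1. The methods' paired test gave 802 and 696 unadjusted and 0 and 1 after Benjamini-Hochberg adjustment. With a pair left out limma called 0 to 10 higher, the most without pair 3, and 0 to 1 lower. Probe sets past 0.5 in every pair numbered 73 higher and 10 lower, 102 and 6 after median centring, and 154 and 57 past 0.35. With a pair left out, and so fewer pairs to pass, they were 110 to 148 higher and 39 to 136 lower. The cause of the differences between these counts was not tested. Signal over background was not on hand, which limits Sele and Selp most.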
